A study of Mus musculus with 24 samples.

Results

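Scn4b, Gpx6, Lrrc10b, Syndig1l, Rasgrp2, Cd4, Ano2, Plxnd1, Ptprv and Ackr2 are genes of the mouse striatum that had lower transcript levels in the nucleus accumbens after morphine. They are 10 of the 30270 genes in the deposited tables. Of these, 9 were found by the gene symbol in the tables, and Ptprv, whose symbol is left blank there, by its gene identifier (ENSMUSG00000097993.7). The genes were named because their values in morphine and PBS libraries of the nucleus accumbens had already been seen to be lower, so those values, and the counts of calls among them, are a description and support nothing. The comparisons of the genotypes within the accumbens use the same libraries and are a description too. Those within the VTA were tested. The comparison of the regions shares the accumbens libraries, and the genes were named as striatal ones, so it is a description as well.

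The nucleus accumbens is the ventral part of the striatum. Most of its neurons are medium spiny neurons, GABAergic cells that express either dopamine receptor 1 or dopamine receptor 2 and that receive dopamine from neurons of the ventral tegmental area (VTA). Morphine acts on the mu opioid receptor, and its reinforcing action involves the dopamine neurons of the VTA and their release of dopamine in the accumbens. The named genes have unlike known functions. Scn4b encodes an auxiliary beta subunit of voltage-gated sodium channels, Ano2 a calcium-activated chloride channel, Rasgrp2 a calcium- and diacylglycerol-regulated exchange factor that activates the small GTPase Rap1, and Syndig1l a transmembrane relative of the AMPA receptor-associated protein SynDIG1. Plxnd1 encodes the plexin receptor for semaphorin 3E, Cd4 the T cell co-receptor for MHC class II, Ackr2 a scavenging receptor for inflammatory CC chemokines, Ptprv a receptor-type tyrosine phosphatase, Gpx6 a glutathione peroxidase and Lrrc10b a protein with leucine-rich repeats.

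The study set up 8 groups of 3 mRNA libraries, 24 in all, from bilateral micropunches of the accumbens and the VTA. The mice were wild-type (VDR+/+) or lacked the vitamin D receptor (VDR-/-, here Vdr-/-), both on a C57BL/6 background, and had received PBS or morphine sulfate at 5 mg/kg intraperitoneally. The diet of the Vdr-/- mice was enriched in calcium and lactose. The diet of the wild-type mice of these libraries is not given in the sources used here. If it differed, genotype and diet cannot be told apart. The mouse numbers were 1.0, 1.1 and 1.2 (wild-type, morphine), 2.0, 2.1 and 2.2 (Vdr-/-, morphine), 1, 2 and 3 (wild-type, PBS) and 7, 8 and 9 (Vdr-/-, PBS) in both regions. The age and sex of the mice are not given in the sources used here. The study's results place the dissection at 90 min after either injection, while its methods for quantitative PCR and western blots describe accumbens and VTA samples of saline controls taken at 60 min. Whether that also held for the PBS libraries is not given in the sources used here, and if it did, injection and time cannot be told apart. No preparation date or sequencing run is labelled, and a difference in preparation between the morphine and the PBS libraries cannot be told apart from the injection.

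The accumbens libraries held 9328726 to 24509922 reads assigned to genes and the VTA libraries 12421680 to 30184426. Levels are given as counts-per-million (CPM) of the reads assigned to genes in each library. Fold changes were fitted within the deposited tables on log2(normalized count + 1), with a Benjamini-Hochberg adjusted p under 0.05 as the threshold for a call. In the accumbens the list of 36 striatal neuron genes, of which 35 are in the tables, summed to between 11277 and 14502 CPM in the PBS libraries, against 1538 to 1644 CPM in the VTA ones. In the VTA the summed level of 10 dopamine neuron genes, which includes Th and Slc6a3, was 2336 to 2895 CPM in wild-type mice with PBS but 207 to 562 CPM in wild-type mice with morphine. It was 522 to 2210 CPM in Vdr-/- mice with PBS and 601 to 1173 CPM in those with morphine, so the VTA libraries ranged widely in the marker genes of the region they are labelled with. Vdr itself had 1 to 17 reads per wild-type library and 0 to 17 per Vdr-/- library, and at this depth its counts do not check the genotype labels.

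In the nucleus accumbens, each of the 10 genes was lower in all 3 morphine libraries than in all 3 PBS libraries, in wild-type mice and in Vdr-/- mice. The mean CPM of the morphine libraries was 25.4% (Gpx6) to 55.0% (Plxnd1) of that of the PBS libraries in wild-type mice, with a median of 47.5%. In Vdr-/- mice it was 22.1% (Gpx6) to 60.1% (Plxnd1), with a median of 51.7%. Of the 15749 genes tested in wild-type accumbens, 0.400% were called lower after morphine, and 9 of the 10 named genes were among them. In Vdr-/- accumbens 9.13% of 15820 genes were called lower, and all 10 named genes were among them. Since the genes were chosen on these libraries, nothing is read from those counts or from the lack of overlap. The share of all genes without overlap is not given here. The wild-type number depended on which libraries were included. Leaving out morphine mouse 1.0 gave 5, and leaving out 1.1 or 1.2 gave 0. Leaving out PBS mouse 1 gave 2, and it was 10 when PBS mouse 2 was left out and 1 for PBS mouse 3. Over all genes the number called in either direction, 128, became 21, 0, 0, 4, 627 and 9 in the same order, so every wild-type accumbens call given here was lost without morphine mouse 1.1 or 1.2. PBS mouse 2 stood apart from the other wild-type PBS libraries of the accumbens, with a chi-square per degree of freedom of 32.9 and 34.5 against them where they gave 9.68 between themselves. The fold changes themselves stayed negative for all 10 genes without any 1 library.

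**Figure D1:**
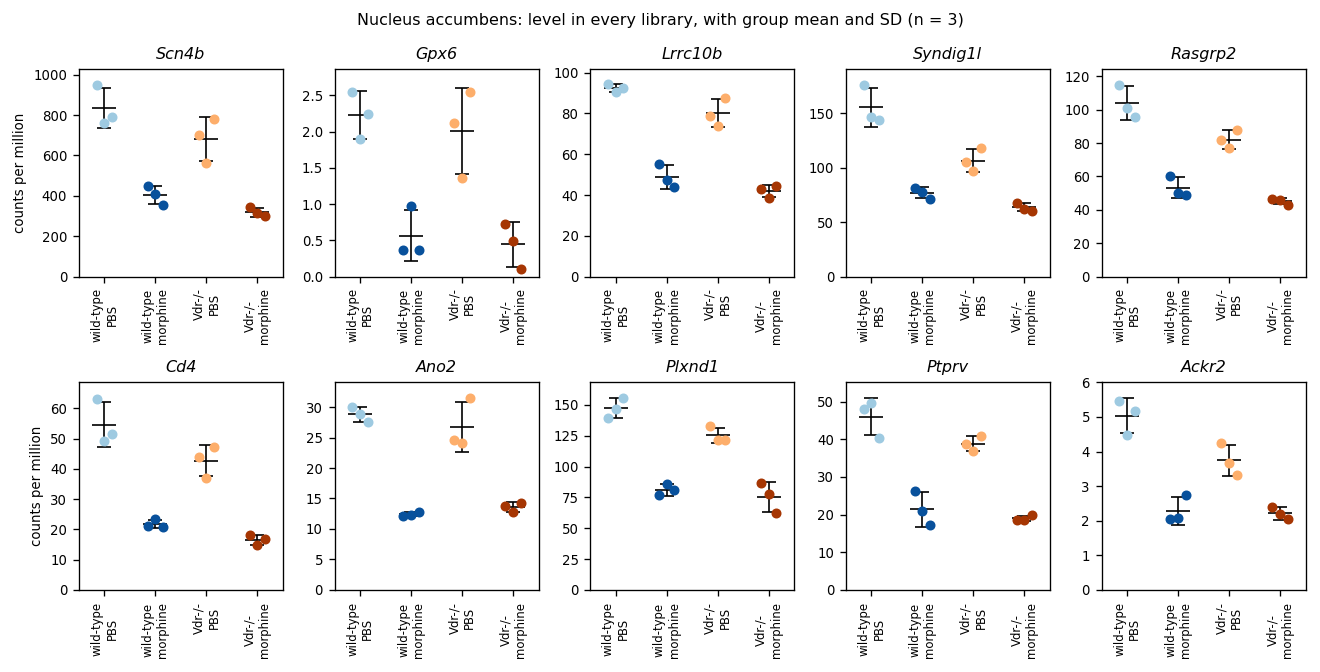
Level of each gene in the 12 libraries of the nucleus accumbens, in CPM on a linear axis that starts at 0. Points are libraries, the horizontal line is the mean of 3 and the bar is the SD. In every panel the morphine points lie below the PBS points of the same genotype.

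Scn4b (chr9:45138395-45154152, GRCm38, plus strand) was the most abundant of the genes. Its level was 947, 762 and 792 CPM in the wild-type PBS libraries and 447, 409 and 356 CPM after morphine. It was 703, 564 and 781 CPM with PBS and 343, 315 and 299 CPM with morphine in Vdr-/- mice. The lowest PBS library was 1.70 times the highest morphine library in wild-type and 1.64 times in Vdr-/- mice. The log2 difference was -1.07 (SE 0.126) in wild-type and -1.13 (SE 0.0996) in Vdr-/- mice.

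Ano2 (chr6:125690419-126040126, plus strand), the other ion channel gene, had the tightest wild-type morphine group, with an SD of 2.73% of its mean. Its level was 30.0, 28.9 and 27.5 CPM with PBS and 12.1, 12.3 and 12.8 CPM with morphine in wild-type mice. The Vdr-/- libraries had 24.6, 24.1 and 31.5 CPM with PBS and 13.8, 12.8 and 14.3 CPM with morphine. The log2 difference was -1.24 (SE 0.0863) in wild-type and -1.0 (SE 0.105) in Vdr-/- mice, and in wild-type mice the lowest PBS library was 2.15 times the highest morphine library.

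Rasgrp2 (chr19:6399340-6415216, plus strand), the Rap1 activator, ranged from 95.4 to 115 CPM in wild-type PBS libraries and from 48.9 to 60.4 CPM after morphine. The Vdr-/- ranges were 76.8 to 87.8 CPM and 43.0 to 46.3 CPM. Syndig1l (chr12:84677277-84698831, minus strand) was 176, 147 and 143 CPM with PBS and 81.7, 77.5 and 71.5 CPM with morphine in wild-type mice. In Vdr-/- mice it was 105, 96.8 and 118 CPM with PBS and 67.8, 62.4 and 60.5 CPM with morphine, so that the remaining share was 49.5% in wild-type and 59.7% in Vdr-/- mice. The exons of Rasgrp2 overlap those of Gm14965 on the opposite strand over 2.14% of their bases, and those of Syndig1l overlap Gm48573 over 5.75%. The library kit was directional, but the strand setting of the deposited counts is not given in the sources used here.

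Among the receptors at the cell surface, Plxnd1 (chr6:115954811-115995005, minus strand) was the least reduced. It ranged from 140 to 156 CPM in wild-type PBS libraries and from 76.6 to 86.2 CPM after morphine, and in Vdr-/- mice from 122 to 133 CPM and from 62.5 to 86.3 CPM. Cd4 (chr6:124864692-124888221, minus strand) was 63.1, 49.2 and 51.7 CPM with PBS and 21.3, 23.4 and 20.9 CPM with morphine in wild-type mice. Cd4 in Vdr-/- mice was 43.8, 37.0 and 47.3 CPM with PBS and 18.2, 14.9 and 16.7 CPM with morphine. After Gpx6 it was the gene with the lowest share left, 40.0% in wild-type and 38.9% in Vdr-/- mice.

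Cd4 is best known from T cells, so the T cell genes were read in the same libraries. Cd3d, Cd3e, Cd3g, Cd8a, Cd8b1 and Cd28 had at most 0.118 CPM in any accumbens library, Cd2 at most 0.370 CPM and Cd5 at most 0.322 CPM. Lck, a kinase that binds the CD4 protein in T cells, was the only one above 1 CPM, at 1.44 to 2.92 CPM. The defining genes of T cells were thus at or near 0 where Cd4 was at 14.9 to 63.1 CPM. Cd4 lies 0.802 Mb from Ano2 on chromosome 6.

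Ptprv (chr1:135108497-135132594, minus strand), which the annotation lists as a processed transcript, ranged from 40.4 to 49.6 CPM with PBS and from 17.2 to 26.3 CPM with morphine in wild-type mice. Its Vdr-/- ranges were 36.8 to 40.8 CPM and 18.5 to 19.8 CPM. Of its exon bases 4.94% overlap Gm10535 on the opposite strand. Lrrc10b (chr19:10455371-10457473, minus strand) had the most even wild-type PBS libraries, at 94.3, 90.6 and 92.2 CPM, and was 55.3, 47.4 and 43.7 CPM after morphine. Lrrc10b in Vdr-/- mice was 78.9, 73.9 and 87.5 CPM with PBS and 43.2, 38.8 and 44.3 CPM with morphine.

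Gpx6 (chr13:21312125-21319624, plus strand) and Ackr2 (chr9:121898355-121911074, plus strand) were the rarest. Gpx6 was counted with 42, 22 and 55 reads in the wild-type PBS libraries and with 6, 16 and 4 reads after morphine, or 2.54, 1.89 and 2.24 CPM against 0.36, 0.974 and 0.365 CPM. The Vdr-/- libraries had 40, 23 and 48 reads with PBS and 11, 9 and 1 reads with morphine. The groups did not overlap, but the SD of the morphine libraries was 62.3% of their mean in wild-type and 70.7% in Vdr-/- mice, and the size of the difference was the least certain of the 10. The log2 difference was -2.01 (SE 0.397) in wild-type mice, where Gpx6 was the 1 gene not called, and -2.28 (SE 0.500) in Vdr-/- mice. Ackr2 was 5.45, 4.47 and 5.18 CPM with PBS and 2.04, 2.07 and 2.74 CPM with morphine in wild-type mice. Ackr2 in Vdr-/- mice was 4.23, 3.67 and 3.33 CPM with PBS and 2.38, 2.20 and 2.04 CPM with morphine.

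Levels of different genes were compared per kilobase of exon. The exon bases are all those annotated for any transcript of a gene, 12384 for Rasgrp2 and 2103 for Lrrc10b. Which transcripts were expressed was not tested, so the order depends on the annotation, and the value of Rasgrp2 may be too low. In wild-type PBS accumbens Scn4b had a mean of 167 RPKM, the CPM divided by the kilobases of exon (n = 3), followed by Syndig1l at 50.4 (SD 5.79) and Lrrc10b at 43.9 (SD 0.882), a pair whose order lies within that spread. Plxnd1 at 20.2 (SD 1.11) and Cd4 at 13.5 (SD 1.84) came next, then Rasgrp2 at 8.39 (SD 0.811), Ptprv at 6.58 (SD 0.701) and Ano2 at 5.35 (SD 0.228). Gpx6 at 1.63 (SD 0.239) and Ackr2 at 1.61 (SD 0.162) were lowest and did not differ beyond their spread.

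Windows around the transcription start, from 250 bases before it to 50 bases after, were read from RefSeq (GRCm38.p6) for 7 of the 10 genes. Cd4, Syndig1l and Ptprv had no entry. The windows were searched on both strands for TGACGTCA (the cyclic AMP response element), TGACG (its core, which the full element contains), TGANTCA (the AP-1 site), GGGCGG (the GC box) and TATAAA (the TATA box). The full cyclic AMP response element, the AP-1 site and the TATA box were found in none of the 10 windows of the 7 genes, and 1.79%, 7.81% and 13.6% of all 32817 windows hold them. The core element was in the window of Gpx6 and in 20.8% of all windows. GC boxes were in windows of Lrrc10b, Rasgrp2, Ano2 and Plxnd1 and in 35.6% of all windows. The windows of the gene with the largest fold difference and of the 2 with the most GC boxes are shown, 5′ to 3′ on the strand of the gene, with the matched letters in capitals. They are chr13:21311953-21312252 (plus strand) for Gpx6, chr19:10457398-10457697 (minus strand) for Lrrc10b and chr19:6399625-6399924 (plus strand) for Rasgrp2.
Gpx6: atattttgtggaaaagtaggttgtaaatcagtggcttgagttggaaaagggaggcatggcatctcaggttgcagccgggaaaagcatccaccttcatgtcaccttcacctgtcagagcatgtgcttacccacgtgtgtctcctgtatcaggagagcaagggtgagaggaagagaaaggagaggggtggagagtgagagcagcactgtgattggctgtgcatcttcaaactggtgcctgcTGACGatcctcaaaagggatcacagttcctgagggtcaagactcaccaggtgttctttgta
Lrrc10b: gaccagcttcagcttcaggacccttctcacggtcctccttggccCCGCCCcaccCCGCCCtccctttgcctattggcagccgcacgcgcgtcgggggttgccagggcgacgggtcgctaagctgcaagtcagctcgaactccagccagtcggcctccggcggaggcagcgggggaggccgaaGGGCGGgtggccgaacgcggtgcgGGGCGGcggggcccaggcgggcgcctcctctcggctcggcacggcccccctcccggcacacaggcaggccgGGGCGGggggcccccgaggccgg
Rasgrp2: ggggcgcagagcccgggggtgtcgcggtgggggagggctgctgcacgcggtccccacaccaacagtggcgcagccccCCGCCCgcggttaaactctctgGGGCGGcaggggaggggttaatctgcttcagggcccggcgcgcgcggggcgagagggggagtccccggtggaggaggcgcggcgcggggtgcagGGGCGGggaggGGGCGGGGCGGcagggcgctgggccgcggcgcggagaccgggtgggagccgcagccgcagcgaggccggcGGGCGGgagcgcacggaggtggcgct

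The Gpx6 window held 1 core element, which begins 11 bases before the start, and no GC box, at a GC content of 50%. That of Lrrc10b held 5 GC boxes at a GC content of 76.3%, and that of Rasgrp2 held 6 at 80%, of which a pair shares 1 base. A second Rasgrp2 start, chr19:6401455-6401754, held 2 GC boxes. The median GC content of all windows was 52.7%. No searched motif was shared by all of these genes.

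Within groups, the 10 genes varied together in part. Over the 12 accumbens libraries, after each group's mean was taken out, 34 of the 45 pairs of genes had a correlation above 0, with a median Pearson r of 0.36 and a range from -0.65 to 0.95. These values share library and depth and are given without a test and without the same values for other genes. Scn4b had the highest median correlation with the other genes (0.61) and Ackr2 the lowest (-0.10). In 1 library, Vdr-/- PBS mouse 8, all 10 genes lay below the group mean, by 0.15 on the log2 scale on average, and in the wild-type PBS mouse 1 and the Vdr-/- morphine mouse 2.0 9 of them lay above it. The median deviation over all genes was 0.0075 in mouse 8, -0.0084 in mouse 1 and 0.0026 in mouse 2.0.

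Among 16365 genes compared, the 5 whose profile over the 12 accumbens libraries was most like the mean of the 10 were Rasd2 (Pearson r 0.986), Ppp3ca (0.985), Hpca (0.985), Gsg1l (0.984) and Ngef (0.981). Rasd2 encodes the small GTPase Rhes, Ppp3ca the catalytic subunit of calcineurin, Hpca the calcium sensor hippocalcin and Ngef the exchange factor ephexin. The correlations include the difference between the injections and are a description over 12 libraries. The log2 difference after morphine was -0.83 for Rasd2, -0.54 for Ppp3ca, -0.79 for Hpca, -0.81 for Gsg1l and -0.57 for Ngef in wild-type mice.

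Other genes of medium spiny neurons were also lower in the morphine libraries. Of 36 striatal neuron genes, which exclude the 10 named ones, 35 were tested. In wild-type mice 7 fell and none rose, 33 had a negative difference, and the median log2 difference was -0.55, beside 0.00 over all genes. Adora2a (an adenosine receptor of Drd2-expressing neurons, -1.05), Drd2 (dopamine receptor 2, -0.84), Ppp1r1b (DARPP-32, -0.83) and Rasd2 (-0.83) had the largest differences among the 7 that were called. Ido1, a gene of a tryptophan-degrading enzyme, at -1.15 (adjusted p = 0.0503, limma) and Sh3rf2 at -0.99 (adjusted p = 0.0602, limma) were not called. In Vdr-/- mice 32 fell and 1 rose, with a median of -0.50. The 4 largest changes among them were those of Ido1 (-0.97), Adora2a (-0.91), Ppp1r1b (-0.86) and Rasd2 (-0.80), while Isl1, a transcription factor that striatal and cholinergic neurons use in development, rose by 0.67. The list was compiled from general knowledge with earlier results of these data known. The summed level of the list was 12922 to 14502 CPM with PBS and 8956 to 10642 CPM with morphine in wild-type mice, and 11277 to 12951 CPM against 8065 to 9175 CPM in Vdr-/- mice. In bulk tissue, fewer cells of a type and less RNA per cell cannot be told apart.

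Genes of the neighbouring septum moved the other way. The summed level of 8 septum genes was 134 to 167 CPM with PBS and 222 to 361 CPM with morphine in wild-type accumbens, and 162 to 205 CPM against 318 to 385 CPM in Vdr-/- accumbens. Zic1, a zinc finger transcription factor of septal neurons, was 21.4, 27.9 and 30.2 CPM with PBS and 67.7, 124 and 75.2 CPM with morphine in wild-type mice. Its log2 difference was 1.68 in wild-type mice and 1.75 in Vdr-/- mice, and it was called in both. The septum list was also compiled with earlier results of these data known, so its values are a description. Of the 7 septum genes tested, 1 rose in wild-type and 6 rose in Vdr-/- mice, with medians of 1.07 and 1.03. No gene of either list, as far as it was in the tables, was under 0.1 CPM in every accumbens library of a group. The part that a difference in dissected tissue has in the lower levels of the 10 genes was not tested.

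Apart from the septum and blood lists, the marker lists of other cell types had medians nearer to 0 than the striatal neuron list. Of 10 astrocyte genes 2 rose in wild-type and 6 rose in Vdr-/- accumbens (medians 0.26 and 0.30), with Gfap up by 0.78 and 1.28. Of 10 microglia genes 1 fell in wild-type and 5 fell in Vdr-/- mice (medians -0.41 and -0.30), and of 10 oligodendrocyte genes none was called in wild-type and 5 fell in Vdr-/- mice (medians -0.29 and -0.21). Of 10 endothelial genes 1 rose, of 10 cortical neuron genes 1 fell, and of 6 dopamine neuron genes tested 1 fell (Slc6a3), all in Vdr-/- mice, and of 3 choroid plexus genes tested none was called. Of 3 blood genes tested none was called in wild-type and 1 fell in Vdr-/- mice (Hba-a1), with medians of -0.74 and -0.55. Their summed level was 18.8 to 66.7 CPM with PBS and 11.7 to 25.6 CPM with morphine in wild-type mice, and 19.8 to 60.3 CPM against 20.7 to 23.6 CPM in Vdr-/- mice, so that the groups overlapped. The part of these cell types in the levels of the 10 genes was not tested.

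**Figure D2:**
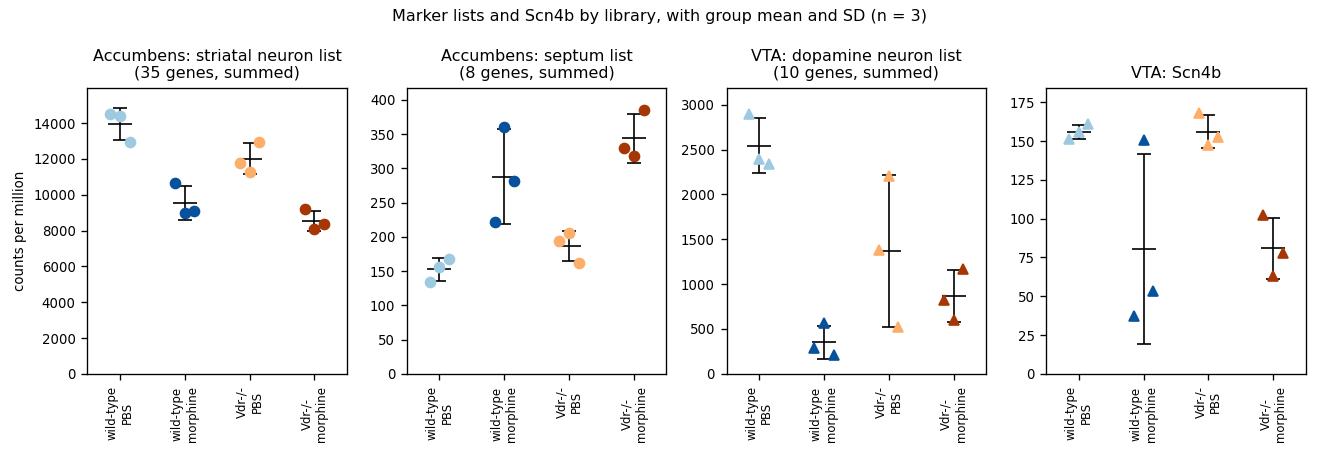
Summed level of the striatal neuron list and the septum list in the accumbens, of the dopamine neuron list in the VTA, and level of Scn4b in the VTA, in CPM on linear axes that start at 0. Points are libraries, with the group mean and SD (n = 3). The striatal list is lower and the septum list higher in every morphine library of the accumbens than in the PBS libraries of the same genotype, and in wild-type VTA the dopamine neuron list is at 207 to 562 CPM after morphine against 2336 to 2895 CPM with PBS.

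Relatives of the 10 genes in the accumbens moved in both directions. Of 8 other sodium channel subunit genes none was called in wild-type mice and 3 fell in Vdr-/- mice. Of 8 other anoctamins tested none was called in wild-type mice, while in Vdr-/- mice Ano3 (-0.45) and Ano8 (-0.33) fell and Ano1 (1.34), a calcium-activated chloride channel like Ano2, rose. Of 10 Ras and Rap regulators none was called in wild-type mice, and in Vdr-/- mice 5 fell, including Rasgrp1 (-0.44), Rapgef4 (-0.40) and Rap1gap (-0.33), and Rap1b rose by 0.27.

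Of 15 plexins, semaphorins and neuropilins 1 rose in wild-type mice, the secreted ligand Sema3c (0.80). In Vdr-/- mice 7 rose, including Sema3c (0.88) and the co-receptors Nrp2 (0.69) and Nrp1 (0.69) and the receptor Plxna1 (0.60), and 1 fell, Sema3e, which encodes the ligand of plexin D1 (-0.27). Of 7 SynDIG relatives and AMPA receptor subunits only Syndig1 was called, at -0.35 in Vdr-/- mice. Of 17 receptor tyrosine phosphatases none was called in wild-type mice, and in Vdr-/- mice 4 rose (Ptprz1 and Ptprk by 0.42 each, Ptpro by 0.36 and Ptprg by 0.32) and 2 fell. Of 5 glutathione peroxidases tested none was called in wild-type mice, and in Vdr-/- mice Gpx3 rose by 1.21 and Gpx4 fell by 0.20. Of 11 genes for atypical chemokine receptors and chemokines 2 were tested and none was called. The share called over all genes in Vdr-/- mice, in either direction, was 3018 of 15820.

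The differences after morphine were set beside each other for the genotypes. The Vdr-/- log2 difference minus the wild-type one ranged from -0.27 (SE 0.740) for Gpx6 to 0.37 (SE 0.240) for Ackr2, and 0 of the 10 genes, beside 0% of 15788 genes, were called by limma. Over all genes 916 had an unadjusted p under 0.05, and edgeR and DESeq2 also called 0. For Lrrc10b the difference was -0.01 (SE 0.129), for Scn4b -0.06 (SE 0.183) and for Cd4 -0.06 (SE 0.170). These use the libraries on which the genes were chosen and are a description.

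The genotypes were also set beside each other within 1 injection, on the same libraries and as a description. With PBS, all 10 genes had lower means in Vdr-/- than in wild-type accumbens, by 0.09 (Ano2) to 0.52 (Syndig1l) on the log2 scale, with a median of -0.25, and none was called by limma at 0.05 after adjustment over all genes (0.0690% of 15933 genes were called). At an unadjusted p under 0.05 there were 6 of them, beside 1424 of all genes. DESeq2 called 1 of the 10, Syndig1l, beside 63 of all genes, and edgeR 0, beside 12 of all genes. Syndig1l differed most, at 1859 ± 186 normalized counts in Vdr-/- and 2670 ± 333 in wild-type mice (SD, n = 3 each), with no overlap between the groups (log2 difference -0.52, SE 0.113). Rasgrp2 (-0.31, SE 0.0953) and Plxnd1 (-0.21, SE 0.0803) also did not overlap between the genotypes with PBS. How many of all genes did not overlap here is not given, so nothing is read from the lack of overlap. The striatal neuron list had 32 of 35 negative differences in the same comparison, a median of -0.22 and no call.

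With morphine, 9 of the genes passed the filter on low values in the comparison of genotypes, all but Gpx6. Of these 8 had lower means in Vdr-/- accumbens, from -0.39 (Cd4) to -0.03 (Ackr2), and Ano2 was at 0.14. None was called by limma, beside 0.192% of 15638 genes, and 5 had an unadjusted p under 0.05, beside 1209 of all genes. DESeq2 called 1 of them, Scn4b (log2 difference -0.33), beside 50 of all genes, and edgeR 0, beside 24 of all genes. Cd4 was 233 ± 23.1 normalized counts in Vdr-/- and 305 ± 17.6 in wild-type mice (SD, n = 3 each), without overlap (log2 difference -0.39, SE 0.0937). Scn4b, Syndig1l and Rasgrp2 also did not overlap between the genotypes with morphine. The share of all genes without overlap in this comparison is not given here, so nothing is read from the lack of overlap.

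All 10 genes had higher levels in the accumbens than in the VTA. The difference was averaged over genotype and injection on log2(CPM + 0.5), and 29.7% of 16561 genes were called higher in the accumbens. It ranged from 0.76 for Rasgrp2 to 5.35 for Cd4, and all 10 genes were called. Gpx6, Cd4 and Ackr2 were under 0.5 CPM in every VTA library and passed the filter on low values only through the accumbens, so nothing is read from a count over all 10. The other 7 genes were at up to 168 CPM in the VTA. The 36 genes of the striatal neuron list, 35 of them tested, gave 34 higher and 1 lower, with a median of 2.75.

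Some of the genes were nearly absent from the VTA and others were well measured there. Cd4 had 2 to 10 reads in every VTA library, at 0.110 to 0.456 CPM, against 14.9 CPM or more in the accumbens (difference 5.35, SE 0.0811). Ptprv at 0.279 to 0.987 CPM (4.83, SE 0.114) and Lrrc10b at 1.04 to 3.35 CPM (4.74, SE 0.0975) came next. Gpx6 had 0 to 3 reads and Ackr2 0 to 12 reads per VTA library, so that their differences on this scale, 1.51 and 2.42, are held down by the added 0.5 CPM.

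Rasgrp2 was the gene with the smallest difference between the regions, at 32.7 to 48.3 CPM in the VTA (0.76, SE 0.0531). In PBS mice the mean in the accumbens was 2.87 times that in the VTA in wild-type and 2.16 times in Vdr-/- mice. In morphine mice the ratio was 1.17 in wild-type and 1.14 in Vdr-/- mice, and in the latter the libraries of the regions overlapped. The mean level of Scn4b in the accumbens was 4.38 to 5.35 times that in the VTA with PBS and 3.94 to 5.03 times with morphine. Syndig1l was at 14.1 to 21.1 CPM in the VTA (difference 2.46, SE 0.0565), Plxnd1 at 17.0 to 27.5 CPM (2.24, SE 0.0571) and Ano2 at 0.348 to 4.51 CPM (3.30, SE 0.187).

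**Figure D3:**
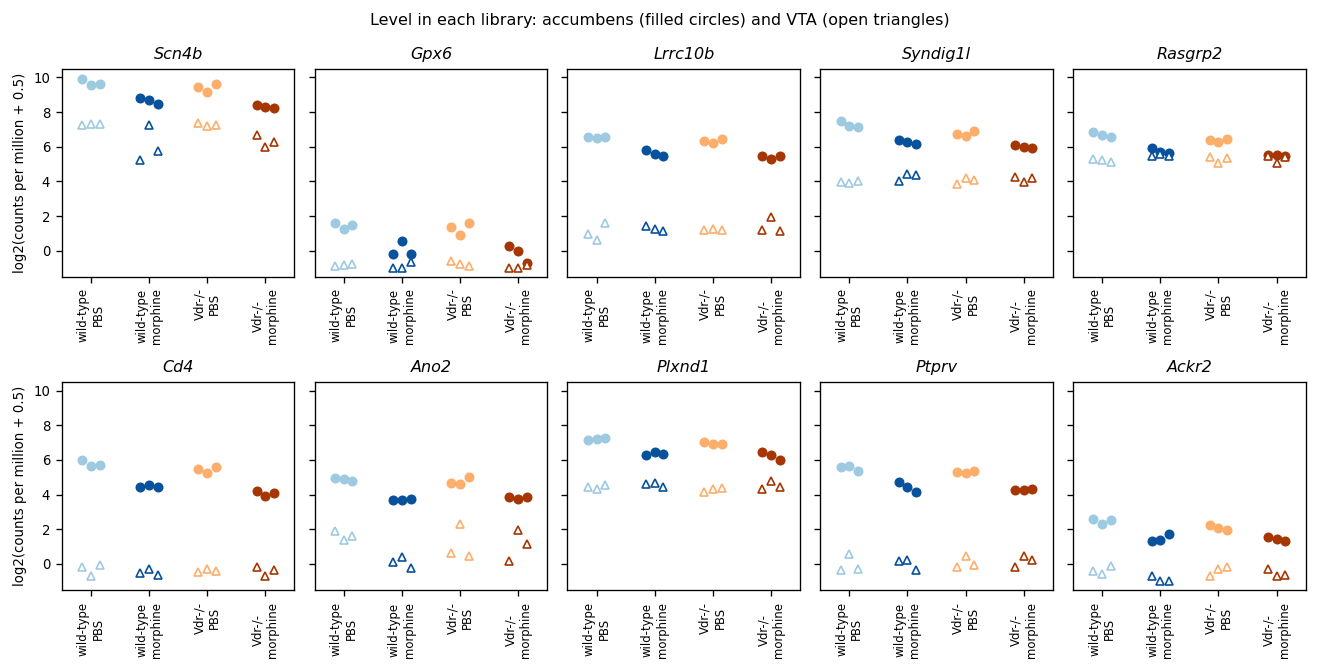
Level of each gene in all 24 libraries, as log2(CPM + 0.5), by genotype and injection. Filled circles are accumbens libraries and open triangles VTA libraries, 3 of each per group. The circles lie above the triangles in every group of every gene except Rasgrp2 in Vdr-/- mice with morphine, where they overlap.

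In the VTA, 7 of the 10 genes passed the filter on low values in the morphine comparisons, and Gpx6, Cd4 and Ackr2 did not. The deposited VTA tables for morphine hold 3 morphine and 2 PBS libraries, without wild-type PBS mouse 3 and Vdr-/- PBS mouse 8, so the levels of these 2 libraries are given below but did not enter the morphine tests. In wild-type VTA 1 of the 7 was called (Ano2, lower), beside 3.65% of 16187 genes in either direction, and without PBS mouse 1 or PBS mouse 2 no gene was called there. In either genotype, leaving out 1 of the 2 PBS mice leaves a group of 1 library, and the spread then comes from the morphine libraries alone. In Vdr-/- VTA 1 of the 7 was called (Scn4b, lower), beside 10% of 16364 genes. With 3 against 2 libraries an exact permutation test cannot go below 0.1.

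Scn4b in wild-type VTA was 151, 156 and 161 CPM with PBS and 37.2, 151 and 53.4 CPM with morphine. The library of mouse 1.1 stood at the PBS level and the others far below it, and the difference of -1.23 on the log2 scale (SE 0.537) was not called (limma adjusted p = 0.221, exact permutation p = 0.2). Without mouse 1.1 it was -1.83 and called (limma adjusted p = 0.00145). In Vdr-/- VTA Scn4b was 168, 147 and 153 CPM with PBS and 102, 62.9 and 77.9 CPM with morphine, with no overlap, and fell by 1.02 on the log2 scale (SE 0.180, limma adjusted p = 0.0209, exact permutation p = 0.1). That call was lost without PBS mouse 7 (adjusted p = 0.159), PBS mouse 9 (adjusted p = 0.069) or morphine mouse 2.2 (adjusted p = 0.0778), with limma differences of -0.94 to -1.09.

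Ano2 in wild-type VTA was 3.21, 2.14 and 2.51 CPM with PBS and 0.568, 0.792 and 0.348 CPM with morphine, which is 39 to 79 reads against 5 to 13. The groups did not overlap, and the gene fell by 2.19 on the log2 scale (SE 0.396, limma adjusted p = 0.0388, exact permutation p = 0.1). The call was lost without morphine mouse 1.2 (adjusted p = 0.118), PBS mouse 1 (adjusted p = 0.343) or PBS mouse 2 (adjusted p = 0.198, limma). Ano2 in Vdr-/- VTA was 1.06, 4.51 and 0.895 CPM with PBS and 0.630, 3.40 and 1.70 CPM with morphine, so the libraries of each group spread widely and the groups overlapped.

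The wild-type morphine libraries of the VTA also had lower dopamine neuron markers. Of 10 such genes 7 fell, with a median of -2.98, and Th, the enzyme of dopamine synthesis, was 425, 338 and 332 CPM with PBS and 34.5, 65.4 and 24.4 CPM with morphine. Among the Vdr-/- libraries none of the 10 fell and 1 rose, with a median of 0.03. That comparison left out Vdr-/- PBS mouse 8, whose summed level of these genes, 2210 CPM, was the highest of the Vdr-/- VTA libraries. The other Vdr-/- PBS libraries had 1381 and 522 CPM, and the morphine libraries 601 to 1173 CPM. Th was 203, 325 and 59.6 CPM with PBS and 70.8 to 151 CPM with morphine in Vdr-/- mice. The count with mouse 8 included is not given here, so the genotypes are not contrasted. Mouse 1.1, whose Scn4b level was at that of the PBS libraries, had the highest Th level of the 3 wild-type morphine libraries but still well below the wild-type PBS range. Oligodendrocyte genes were lower in both genotypes. Their summed level was 12434 to 13530 CPM with PBS and 6361 to 10424 CPM with morphine in wild-type mice, where 1 of 10 fell (median -0.81), and 12320 to 12730 CPM against 8325 to 9201 CPM in Vdr-/- mice, where 9 of 10 fell (median -0.68). Microglia genes summed to 387 to 459 CPM with PBS and 232 to 256 CPM with morphine in wild-type mice, where 7 of 10 fell (median -0.82), and to 318 to 429 CPM against 251 to 280 CPM in Vdr-/- mice, where 4 of 10 fell (median -0.42). Of 3 blood genes tested 1 fell in wild-type and none in Vdr-/- VTA, with medians of -1.06 and -0.91. The part of these cell types in the Scn4b and Ano2 values was not tested.

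The other genes did not follow in the VTA. Lrrc10b (0.57, SE 0.256), Syndig1l (0.30, SE 0.159), Rasgrp2 (0.25, SE 0.0826) and Plxnd1 (0.16, SE 0.0984) had positive differences in wild-type VTA, and Ptprv (-0.15, SE 0.601) rested on few reads. The Vdr-/- values were for Plxnd1 0.28 (SE 0.147), Lrrc10b 0.28 (SE 0.321), Syndig1l 0.15 (SE 0.124), Ptprv 0.46 (SE 0.437) and Rasgrp2 -0.05 (SE 0.123). None of these was called by limma. With all 3 PBS mice, an alternative chosen after seeing the data, Rasgrp2 was at 0.31 in wild-type VTA and called (adjusted p = 0.0443, limma), and Lrrc10b at 0.24 and not called (adjusted p = 0.644, limma), since PBS mouse 3 had 2.55 CPM of Lrrc10b and the morphine libraries 1.67 to 2.17 CPM. Between genotypes in the VTA, 0 of 7 genes were called with PBS (limma, beside 0.390% of 16425 genes) and 0 of 6 with morphine (beside 0.0624% of 16029 genes), and edgeR and DESeq2 called 0 of them as well. The striatal neuron list summed to 1616 to 1666 CPM in the morphine libraries of the VTA, near the PBS range, and its median difference was 0.10 in wild-type and 0.04 in Vdr-/- mice.

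**Figure D4:**
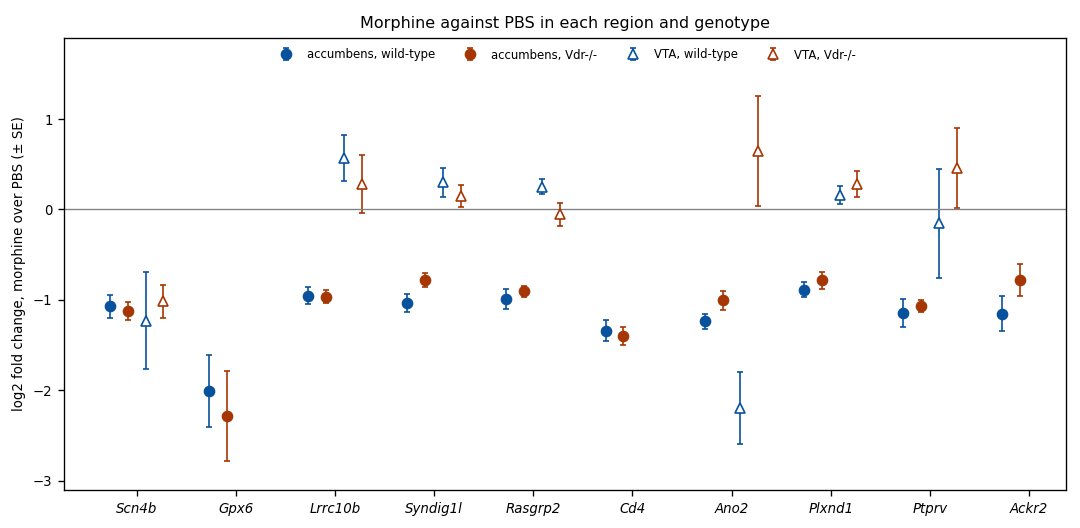
Log2 fold change of morphine over PBS for each gene, with its standard error, in the accumbens (filled circles) and the VTA (open triangles) of wild-type (blue) and Vdr-/- (red) mice. All accumbens points lie between -2.28 and -0.78. The VTA points of Scn4b in both genotypes and of Ano2 in wild-type mice lie between -2.19 and -1.02. The other VTA points lie between -0.15 and 0.64, most of them above 0. Gpx6, Cd4 and Ackr2 have no VTA points because their VTA values were too low to test.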

How the data were processed

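RNA was taken from bilateral micropunches of mouse nucleus accumbens and VTA, and each library is from 1 sample. The authors trimmed reads with Trimmomatic 0.36, mapped them with STAR 2.4.2a to GRCm38 and counted reads per GENCODE gene, and the submitters' processing notes also name CASAVA 1.8. The deposited values are a signal per gene, counts divided by DESeq2 size factors, in 8 tables of 2 groups each. In all 46 library columns 100% of values were whole reads (tolerance 0.01), and these recovered counts gave CPM. Genes with a mean of at least 10 were tested within a table on log2(value + 1) with limma 3.58.1 (eBayes with trend, two-sided, Benjamini-Hochberg, 0.05), and regions on log2(CPM + 0.5) for genes with a mean CPM of at least 0.5. edgeR 4.0.16 and DESeq2 1.42.0 on the recovered counts, other filters and pseudocounts, and leaving out each library were alternatives. The p-values measure the spread between libraries. A table lists no gene with under 2 reads in all of its libraries. Positions are from GENCODE M21. The members and gene lists were chosen with earlier results of these data known. All 10 genes are named in every comparison, and from each list up to 4 called genes with the largest changes. No replicates were duplicates (chi-square per degree of freedom 3.99 to 34.5). The scripts were tested on simulated data.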

Additional observations from a re-analysis of the deposited data

Results flagged for a closer look

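In wild-type mice, Lrrc10b and Rasgrp2 were higher in all 3 morphine libraries of the VTA than in the 2 PBS libraries of the deposited table, by 0.568 and 0.251 on the log2 scale, while in the accumbens every morphine library was below every PBS library for both genes. They were picked out because the libraries of the regions moved in opposite directions. The difference between the regions was not tested. With all 3 PBS mice, taken from the recovered reads and chosen after seeing the data, Rasgrp2 was at 0.31 in wild-type VTA and its groups still did not overlap. The Lrrc10b value fell to 0.24, and its groups overlapped: PBS mouse 3, which the deposited table leaves out, had 2.55 CPM, above the 1.67 to 2.17 CPM of the morphine libraries. The separation of the Lrrc10b groups in the VTA thus depends on leaving that library out, while the sign of the difference does not.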

How the results depend on the processing

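All 10 genes stayed higher in the accumbens than in the VTA and called in each of 28 alternatives, the replicate block on the mouse number included (10 of 10), of which Gpx6, Cd4 and Ackr2 passed the filter only through the accumbens. The numbers are only shared: same-numbered libraries of the regions deviated together with r over 0.1 in 5 of 12 mice, and 8 of 12 correlated best with their own number. The number of the 10 genes called lower in wild-type accumbens was 9, but 3 without a variance trend and 0 to 10 with a library left out. Why it varied was not tested. In Vdr-/- accumbens the number was 10, and 8 to 10 under the alternatives, of which a minimum mean of 50 left Gpx6 and Ackr2 untested. There edgeR and DESeq2 each called 10, beside 3080 and 2027 of all genes in either direction. In wild-type accumbens they called 9 and 10, beside 159 and 499 of all genes. In wild-type VTA the 1 call, that of Ano2, was absent with a minimum mean of 50, which left Ano2 untested. The number there became 0 without the trend and 2 with all 3 PBS mice (an alternative chosen after seeing the data). It was 0 to 2 with a morphine library left out. In Vdr-/- VTA the 1 call became 0 without the trend and 0 to 1 with a library left out. Between genotypes in the accumbens, DESeq2 called 1 of the genes with PBS, beside 63 of all genes, and 1 with morphine, beside 50. In both, limma called 0 of the 10 genes. With PBS in the VTA a library left out gave 0 to 1. In Vdr-/- VTA with all 3 PBS mice, Rasgrp2 turned to 0.0519 and Ano2 to -0.0727. With a library left out, Ptprv in wild-type VTA ranged from -0.96 to 0.20, Lrrc10b in Vdr-/- VTA from -0.0274 to 0.444 and Rasgrp2 there from -0.145 to 0.0750. Depth limits Gpx6, Ackr2, Cd4 and Ptprv in the VTA.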
